A study of Mus musculus with 8 samples.

Results

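The comparison set hippocampal RNA of mice without the Cav3.2 calcium channel against that of wild-type mice, taking untrained and trained animals together. Its members were all 8 arrays of the series, chosen by the genotype in their labels: 4 arrays of knockout (KO) mice and 4 of wild-type (WT) mice, with training as a second factor in 1 fit and no interaction term. The KO groups were KNR, naive mice homozygous for the Cacna1h deletion, and KTR, the same genotype after trace fear conditioning (TFC), tested a day later for contextual memory and killed after that test. Their WT counterparts were WNR, naive, and WTR, after TFC. All groups were male mice of 6 to 8 weeks with a C57BL/6 background, and all RNA came from the right hippocampus. The deletion is carried in the germline, and it was bred onto the C57BL/6 background by repeated crosses, while the methods name purchased C57BL/6J males as the WT mice and other passages call the WT mice littermates. Tissue of 3 mice was pooled for each of the 4 groups, and each group was measured on 2 arrays. The labels do not state whether both arrays of a group held RNA of 1 pool or of separate pools, and the methods speak of technical replicates that were averaged and of hippocampi of 3 mice for each group. Each p-value then reflects array-to-array spread, possibly of technical origin. Without an interaction term, it also takes in any change of the genotype difference between training states. The genotype contrast rests on the pools of 2 KO groups and 2 WT groups. With the 2 arrays of each group averaged, limma called 0 probes, and 411 had an unadjusted p under 0.05.

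Cav3.2 is the pore-forming subunit of a T-type calcium channel, encoded by Cacna1h. T-type channels open at small depolarizations near the resting potential, inactivate fast, and let calcium in during bursts of spikes. Calcium that enters a neuron acts through calmodulin, kinases and phosphatases on synapses and, more slowly, on transcription in the nucleus. In the hippocampus such signals take part in long-term potentiation and in memory of the place where an aversive event occurred.

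Values were one-colour array intensities on a linear scale, normalized before deposition, with array medians between 484.7 and 485.4. Values under 100 were raised to 100 before the log2 step, which touched between 5.762% and 5.902% of values on an array, and 16204 probes above 100 on at least 2 arrays were tested. A probe was called when its limma p-value, adjusted by the Benjamini-Hochberg method over all tested probes, was under 0.05. The Snap25 probe, a neuronal marker for a synaptic vesicle fusion protein, read 54840 to 65482 in KO arrays and 65479 to 65481 in WT arrays. Of the 8 values, 7 lay at the top of the scale, so no difference can be read from this probe. For Ttr, the transthyretin gene that marks choroid plexus, KO arrays read 19518 to 22954 and WT arrays 15543 to 33147.

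Between genotypes 18 probes differed, 13 higher and 5 lower in KO mice, which is 0.111% of the probes tested. Of these 18 probes, 10 carried a gene symbol. Bricd5, Srrm2, Dynll2, Mapk8, Dynlt1, Glo1, Map1b and Ago2 rose, and Lemd2 and Eme2 fell. For 17 of the 18 probes, no KO array overlapped any WT array, a separation found for 1080 probes or 6.67% of those tested. In size, 22 probes passed 2-fold, 9 higher and 13 lower, and 7 of them were called. The median size of the log2 difference was 0.14 over all probes.

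The promoters of 4 called genes that lie on the chromosome of Cacna1h are shown first, because the position of these genes recurs in the results. They come from RefSeq on build GRCm38.p6 and run 250 bases before to 50 bases after a gene's start. Of 11 genes looked up, the 10 called ones and Cacna1h, 6 had an entry. Srrm2 had 2 promoters, of which 1 is shown. Capitals mark the CCAAT box (CCAAT) and the GC box (GGGCGG), searched on both strands together with the TATA box (TATAAA) and the cyclic AMP response element (TGACGTCA). Overlapping matches are drawn as 1 run.
Srrm2, chr17:23802937-23803236, plus strand: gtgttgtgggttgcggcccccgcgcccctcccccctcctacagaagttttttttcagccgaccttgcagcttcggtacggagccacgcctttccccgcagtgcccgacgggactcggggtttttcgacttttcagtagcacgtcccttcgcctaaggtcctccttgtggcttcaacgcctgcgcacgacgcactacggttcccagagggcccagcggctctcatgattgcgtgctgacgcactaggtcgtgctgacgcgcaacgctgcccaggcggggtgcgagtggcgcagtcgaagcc
Bricd5, chr17:24473634-24473933, plus strand: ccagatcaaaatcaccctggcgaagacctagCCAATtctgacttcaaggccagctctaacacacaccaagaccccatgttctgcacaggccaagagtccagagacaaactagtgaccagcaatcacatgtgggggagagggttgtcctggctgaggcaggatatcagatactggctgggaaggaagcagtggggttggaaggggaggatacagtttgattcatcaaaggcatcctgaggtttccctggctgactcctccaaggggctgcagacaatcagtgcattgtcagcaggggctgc
Eme2, chr17:24895038-24895337, minus strand: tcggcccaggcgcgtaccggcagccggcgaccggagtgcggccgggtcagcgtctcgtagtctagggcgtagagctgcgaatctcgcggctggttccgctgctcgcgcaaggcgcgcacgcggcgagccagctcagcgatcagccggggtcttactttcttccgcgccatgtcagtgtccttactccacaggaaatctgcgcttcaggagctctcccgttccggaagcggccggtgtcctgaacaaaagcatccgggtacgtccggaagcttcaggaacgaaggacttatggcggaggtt
Glo1, chr17:30612610-30612909, minus strand: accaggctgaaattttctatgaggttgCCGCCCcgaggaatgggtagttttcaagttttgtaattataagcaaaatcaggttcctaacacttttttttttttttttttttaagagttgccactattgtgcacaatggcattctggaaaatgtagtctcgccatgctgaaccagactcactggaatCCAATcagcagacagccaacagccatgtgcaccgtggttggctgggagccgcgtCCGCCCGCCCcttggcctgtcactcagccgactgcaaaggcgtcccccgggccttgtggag

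The Glo1 window held 1 CCAAT box and 3 GC boxes, the Bricd5 window 1 CCAAT box, and the Srrm2 and Eme2 windows none of the 4 motifs. Among all 32851 promoters of the table, 37.4% held a CCAAT box, 35.7% a GC box, 13.6% a TATA box and 1.79% a cyclic AMP response element. None of the motifs searched was in all 4 windows, and a match describes letters only.

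Cacna1h, the deleted gene, read 1551 and 1489 in KNR and 1036 and 1440 in KTR, against 2575 and 2385 in WNR and 2084 and 2340 in WTR. All 4 KO arrays lay below all 4 WT arrays. The log2 difference was -0.78 ± 0.12 (SE), with an adjusted p of 0.057 in limma, which missed the threshold. The difference was -0.71 in naive mice and -0.85 in trained mice. Where the probe lies in the gene relative to the deleted part is not given in the sources used here, so the level left in KO mice cannot be read as intact transcript. Probes near the threshold were many, as 36 had an adjusted p between 0.05 and 0.06.

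Lemd2 had the largest difference of all called probes and encodes a LEM-domain protein of the inner nuclear membrane. Its probe read 305 and 245 in KNR and 289 and 284.5 in KTR, against 1392 and 1345 in WNR and 899.5 and 896.5 in WTR. The 4 KO arrays lay close together, whereas the naive WT arrays were brighter than the trained ones. Lemd2 fell by 1.98 ± 0.15 (SE) on the log2 scale, 3.96-fold lower in KO mice, with an adjusted p of 0.0038 in limma. A second Lemd2 probe read 946, 791, 751 and 620 in KO arrays, against 790, 839, 700.4 and 681 in WT arrays. On that probe the genotypes overlapped and the log2 difference was 0.04 ± 0.10 (SE). The call of the first probe remained with each of the 8 arrays left out in turn.

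Eme2 encodes a partner of the Mus81 nuclease, which cuts branched DNA at stalled replication forks. It read 113 and 93.1 in KNR and 69.2 and 65.8 in KTR, against 217 and 254 in WNR and 222 and 249 in WTR. Of the 4 KO arrays, 3 were under the floor of 100, and all WT arrays were above 200. Eme2 was at least 2.28-fold lower in KO mice, with a log2 difference of -1.19 ± 0.10 (SE) after the floor and an adjusted p of 0.0046 in limma. A floor of 200, close to the WT values, ended the call (adjusted p 0.17 in limma). Lemd2 and Eme2 are among genes the study listed for right hippocampus from these same arrays, so their place there is not independent evidence.

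Bricd5, a gene named for its BRICHOS domain, had the largest rise. It read 328 and 317 in KNR and 276 and 295 in KTR, against 96.4 and 104.5 in WNR and 119 and 73.7 in WTR. The KO arrays were all far above the WT arrays, of which 2 lay under the floor. Bricd5 was at least 2.87-fold higher in KO mice, with a log2 difference of 1.52 ± 0.10 (SE) and an adjusted p of 0.0025 in limma. A floor of 200 lowered the difference to 0.60 and kept the call.

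Srrm2 encodes a large serine- and arginine-rich scaffold of nuclear speckles, where splicing factors collect. The called probe read 1178 and 1227 in KNR and 1150.0 and 954 in KTR, against 373 and 444.5 in WNR and 396 and 371 in WTR. It was 2.84-fold higher in KO mice and the genotypes did not overlap (log2 difference 1.51 ± 0.10 SE, adjusted p 0.0025 in limma). The other Srrm2 probes, which were dimmer, had differences of 0.37 ± 0.19 and -0.08 ± 0.18 (SE) and overlapping arrays.

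The called probes of Dynll2 and Dynlt1 stand for light chains of cytoplasmic dynein, the motor that carries cargo toward the minus ends of microtubules. Dynll2 read 4167 and 3798 in KNR and 4197 and 4311 in KTR, against 2062 and 2191 in WNR and 1960.0 and 1865 in WTR. The lowest KO array was well above the highest WT array, and Dynll2 was 2.04-fold higher in KO mice (log2 difference 1.03 ± 0.09 SE, adjusted p 0.0076 in limma). The call was lost without the first KTR or the first WTR array. A second, brighter Dynll2 probe had a difference of 0.19 ± 0.16 (SE), with overlapping arrays. Dynlt1 read 1215 and 1187 in KNR and 2594 and 2734 in KTR, against 720 and 565 in WNR and 1212 and 1381 in WTR. Trained mice were brighter than naive mice in both genotypes, so KNR overlapped WTR, and Dynlt1 is the 1 called probe whose genotypes overlap when training is ignored. Within each training state KO arrays were above WT arrays, and the log2 difference was 0.98 ± 0.11 (SE), with an adjusted p of 0.021 in limma. The symbol fits 4 near-identical copies on chromosome 17, Dynlt1a, Dynlt1b, Dynlt1c and Dynlt1f, so the copy measured is uncertain. The call was lost when any 1 array but the first WNR array was left out, with differences of 0.92 to 1.06.

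Map1b encodes a microtubule-associated protein of growing axons. Its called probe was dim, at 152 and 162 in KNR and 178 and 161 in KTR, against 85.2 and 79.3 in WNR and 83.3 and 68.2 in WTR. All WT arrays were under the floor, so Map1b was at least 1.63-fold higher in KO mice (adjusted p 0.033 in limma). Leaving out any 1 of the 8 arrays ended the call, with log2 differences of 0.67 to 0.74. The brighter Map1b probe had a difference of -0.44 ± 0.38 (SE), with overlapping arrays. Dynlt1 and Map1b fall outside the naming rule, by overlap and by brightness, and were named after their values were seen.

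Mapk8 encodes JNK1, a stress-activated kinase at the end of a MAP kinase cascade. Its called probe read 535 and 489 in KNR and 475 and 494 in KTR, against 317 and 313 in WNR and 193 and 215 in WTR. The KO arrays were alike in both training states, while trained WT arrays were dimmer than naive WT arrays. Mapk8 was 1.97-fold higher in KO mice, with a log2 difference of 0.98 ± 0.13 (SE) and an adjusted p of 0.046 in limma. The call ended when any 1 of the 8 arrays was left out, with differences of 0.89 to 1.06. The brighter Mapk8 probe went the other way, with 2989 ± 105 in KO mice and 3515 ± 422 in WT mice (SD, n = 4 arrays each), a log2 difference of -0.23 ± 0.09 (SE) and an adjusted p of 0.28 in limma.

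Ago2 encodes the Argonaute protein that cuts targets paired with a small RNA. Its called probe read 385 and 408 in KNR and 357 and 385 in KTR, against 237 and 254 in WNR and 241 and 232 in WTR. No arrays overlapped, and Ago2 was 1.59-fold higher in KO mice (log2 difference 0.67 ± 0.08 SE, adjusted p 0.035 in limma). A dimmer Ago2 probe had a difference of -0.07 ± 0.13 (SE). The call of the brighter probe ended when any 1 of the 8 arrays was left out, with differences of 0.65 to 0.70.

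Glo1 encodes glyoxalase 1, which detoxifies methylglyoxal, a by-product of glycolysis. It was the brightest called probe, with 24954 and 22555 in KNR and 22744 and 24204 in KTR, against 14039 and 16517 in WNR and 12717 and 13226 in WTR. The lowest KO array exceeded the highest WT array, and Glo1 was 1.68-fold higher in KO mice (log2 difference 0.75 ± 0.10 SE, adjusted p 0.048 in limma). Its call, too, ended when any 1 of the 8 arrays was left out, with differences of 0.71 to 0.82. In bulk tissue, fewer cells of a type and less RNA per cell cannot be told apart for this or any other gene.

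**Figure D1:**
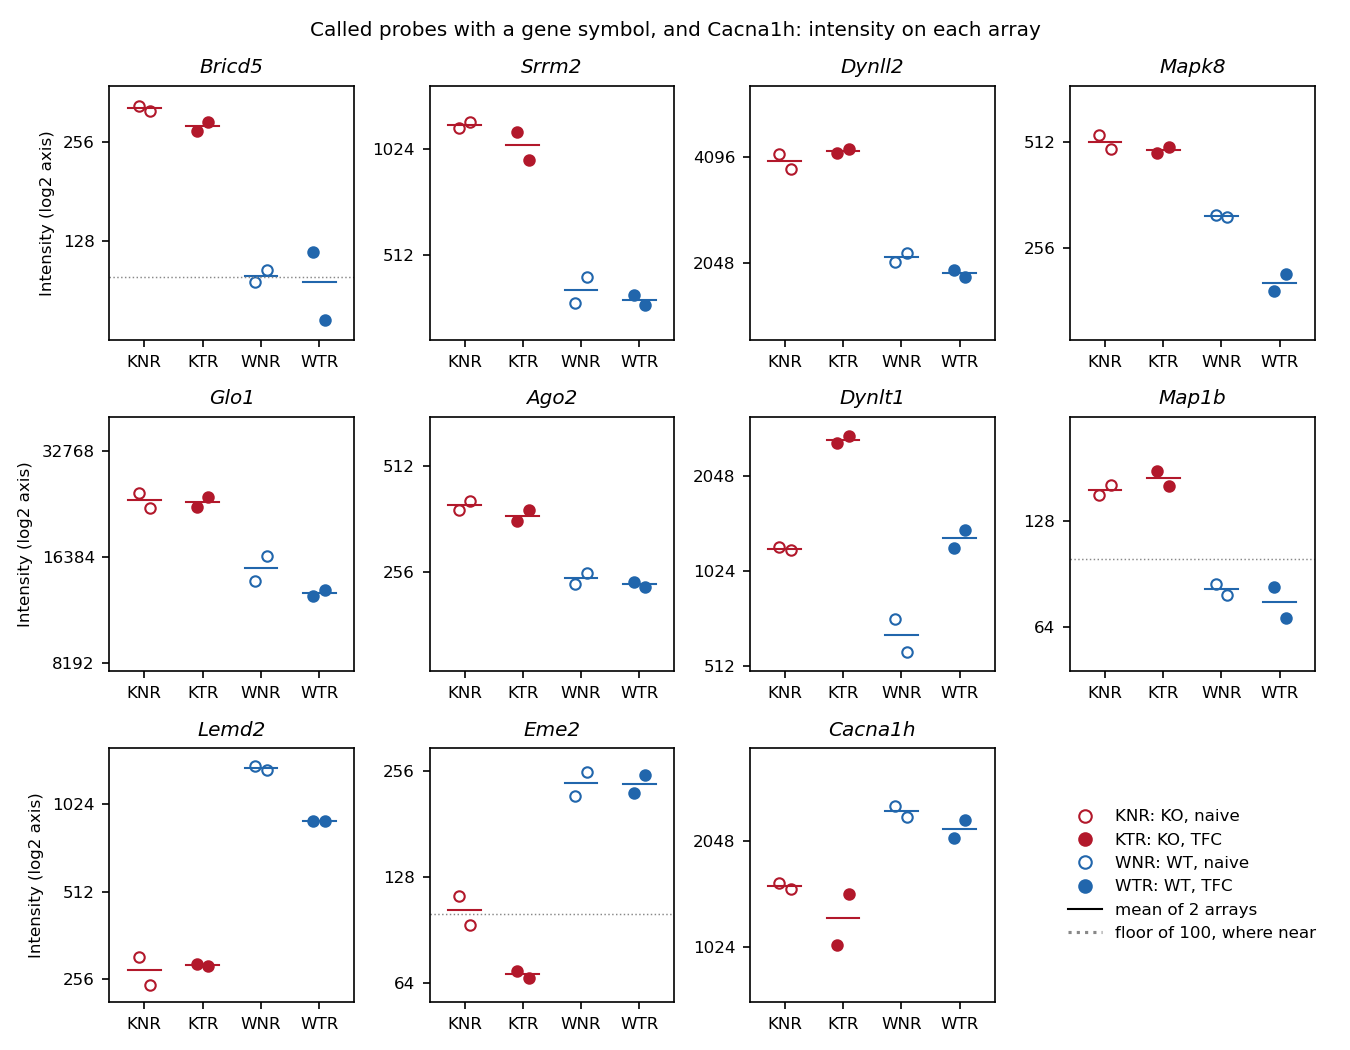
Intensity on each array (log2 axis) of the 10 called probes with a gene symbol and of Cacna1h, in KNR, KTR, WNR and WTR from left to right, with a line at the mean of the 2 arrays of a group and a dotted line at the floor of 100 where values come near it. KO and WT points are separate in every panel except Dynlt1, where KNR (1215 and 1187) overlaps WTR (1212 and 1381).

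Of the 10 called genes, 6 had further probes on the array, 7 in all. None of these 7 was called, 1 had an unadjusted p under 0.05 in limma (16.2% of all probes tested did), and their log2 differences ran between -0.44 and 0.37. Each call of Lemd2, Srrm2, Dynll2, Mapk8, Map1b and Ago2 therefore rests on 1 probe of the gene. Bricd5, Eme2, Dynlt1 and Glo1 had 1 probe each.

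**Figure D2:**
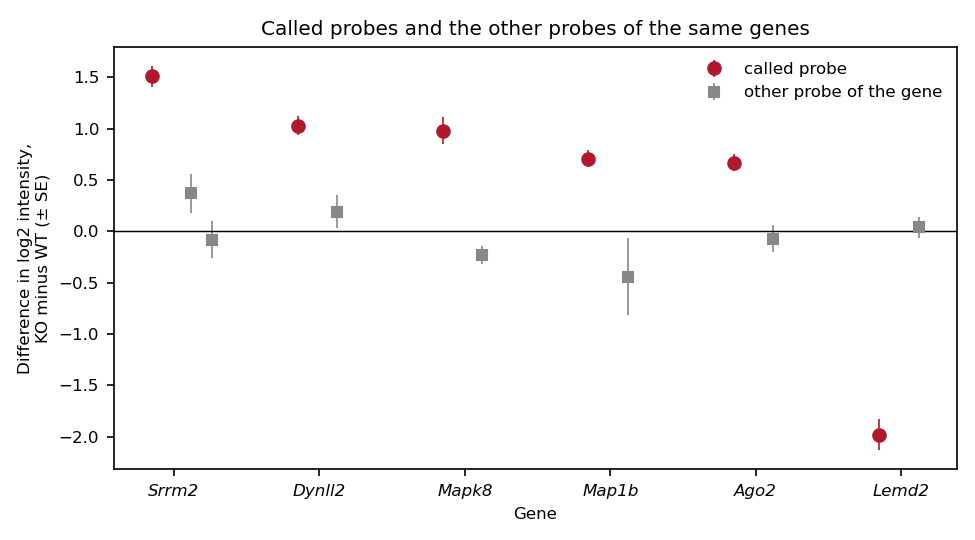
Difference in log2 intensity between KO and WT mice (± SE) for the called probe (circle) and the other probes (squares) of the 6 called genes with more than 1 probe. The called probe stands apart from the others in each gene, as in Lemd2 (-1.98 against 0.04) and Mapk8 (0.98 against -0.23).

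The remaining 8 called probes had no gene symbol, 5 higher and 3 lower. Probe mMC002908 read 1433 and 1649 in KNR and 2072 and 1882 in KTR, against 752 and 725 in WNR and 948 and 946 in WTR, a log2 difference of 1.06 ± 0.09 (SE). Probe mMR028357 read 1012 and 787 in KNR and 1550.0 and 1258 in KTR, against 3861 and 3592 in WNR and 4279 and 3292 in WTR, a log2 difference of -1.74 ± 0.17 (SE). Both separated the genotypes fully, with adjusted p of 0.0046 and 0.012 in limma. The log2 differences of mMC010344 and mMR029813 were 0.99 and -0.91.

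The genotype difference had the same sign in naive and trained mice for all 18 called probes, which were chosen by the difference averaged over these same arrays, so the values by state are a description. Fitted alone with limma, the naive arrays kept 0 and the TFC arrays kept 0 of the 18 calls. The values by state come from a second limma fit, with a mean for each of the 4 groups. Among the called genes, the states differed most in Lemd2, with -2.32 ± 0.12 in naive and -1.65 ± 0.12 in trained mice, and in Mapk8, with 0.70 ± 0.11 in naive and 1.25 ± 0.11 in trained mice (log2, SE). The probe mMR028357 had -2.06 ± 0.19 in naive and -1.43 ± 0.19 in trained mice. Bricd5 differed by 1.66 in naive and 1.39 in trained mice, and Ago2 by 0.69 and 0.65.

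**Figure D3:**
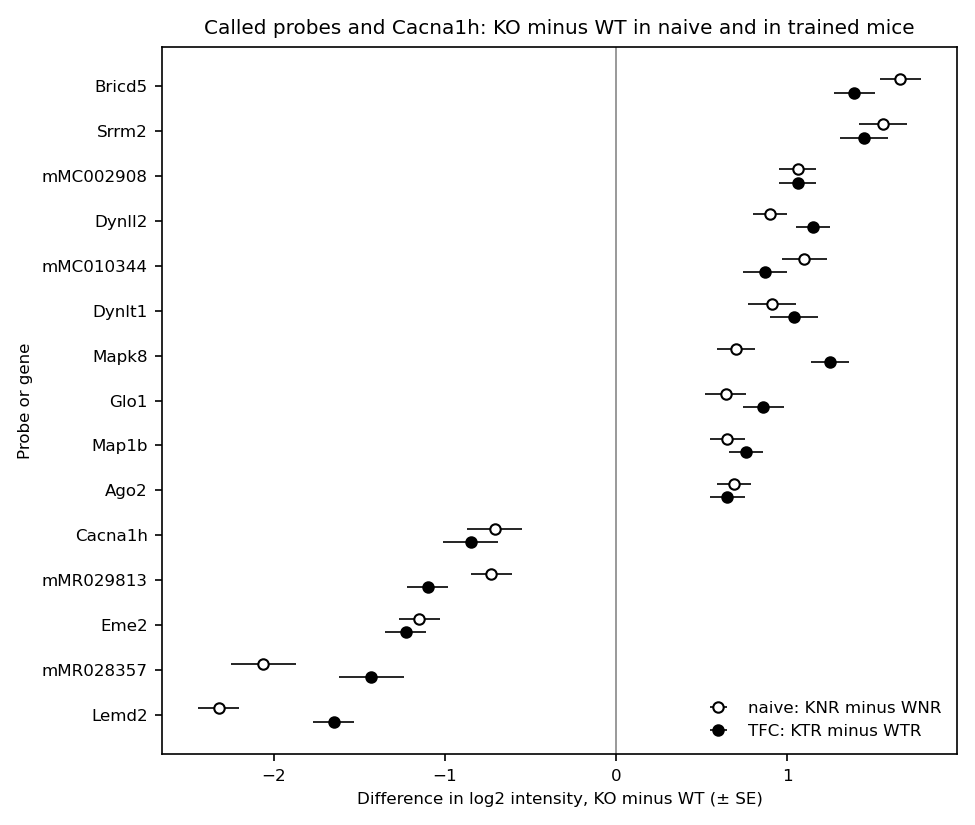
Difference in log2 intensity between KO and WT mice (± SE) in naive mice (open circles, KNR minus WNR) and in trained mice (filled circles, KTR minus WTR) for the called genes, 4 called probes without a symbol and Cacna1h. Each pair lies on 1 side of 0, and Lemd2 has the lowest values (-2.32 and -1.65).

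Of the 10 called genes, 5 lie near Cacna1h on chromosome 17, within 200 annotated genes to either side. In the gene order of GRCm38.p6, Srrm2 lies 109, Bricd5 66 and Eme2 31 genes before Cacna1h, and Lemd2 lies 95 and Glo1 196 genes after it. Bricd5, Srrm2 and Glo1 were higher and Lemd2 and Eme2 lower in KO mice. With 1 probe per gene, that of the highest mean, 6 of 10920 genes were called (0.0549%), and 4 of these 6 were among the 128 measured neighbours. Lemd2 is not among them, since its other probe, which did not differ, had the higher mean over all arrays. In WT arrays alone the called Lemd2 probe was the brighter, with a mean of 1133 against 752.5. Its low KO values, with a mean of 281.1, put it behind.

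Among the 128 neighbours, 25 genes or 19.5% had KO and WT arrays without overlap, 16 above and 9 below. The share was 7.43% of 377 genes further away on chromosome 17 and 6.46% of all genes. It was 6.25% of the other 10414 genes, which include genes without an assigned chromosome, such as Dynlt1. Over all genes, 4.06% lay above and 2.4% below. The median log2 difference of the neighbours was 0.03, against 0.006 for all genes, and genes lay apart in both directions. Within 50 genes of Cacna1h, 0 of 47 genes lay above and 7 below. In the next step of 50 genes, 7 of 37 lay above and 1 below, in the one after that 4 of 28 above and 0 below, and in the outermost 5 of 16 above and 1 below.

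**Figure D4:**
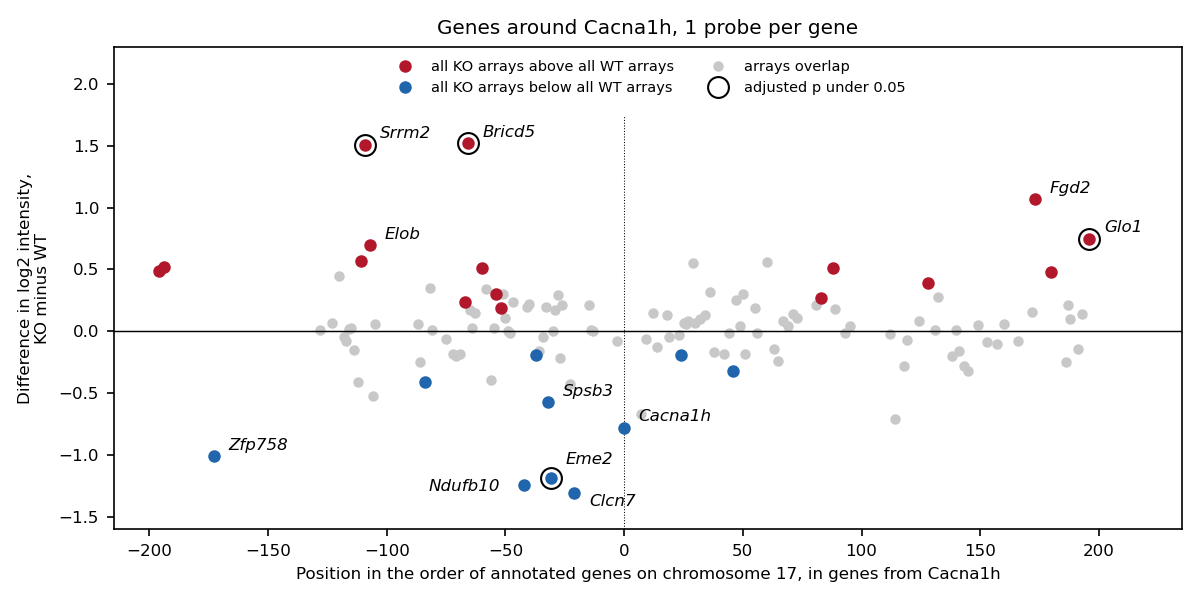
Difference in log2 intensity between KO and WT mice against the position of a gene in the order of annotated genes on chromosome 17, for Cacna1h and the 128 measured genes within 200 annotated genes of it, with 1 probe per gene. Red points are genes with all KO arrays above all WT arrays (16), blue points those below (9, and Cacna1h itself), and circles mark Bricd5, Srrm2, Glo1 and Eme2.

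Neighbours that missed the adjusted threshold but did not overlap included genes seen by 2 probes. Elob, for elongin B of ubiquitin ligase complexes, read 36171 and 36171 in KNR and 33433 and 38431 in KTR, against 18707 and 20570.0 in WNR and 26117 and 24329 in WTR, and its second probe gave the same picture. The log2 differences of the 2 Elob probes were 0.70 ± 0.11 and 0.71 ± 0.14 (SE), with adjusted p of 0.057 and 0.092 in limma. Both probes of Zfp983, a zinc finger gene, differed by 0.49 ± 0.09 (SE). Zfp760, close by, differed by 0.52 ± 0.09 (SE), with 1024 ± 70.2 in KO mice and 716 ± 42.0 in WT mice (SD, n = 4 arrays each). Both probes of Rab26, a small GTPase of secretory vesicles, also kept the genotypes apart, with log2 differences of 0.51 and 0.35. In these 3 genes the probes had the same sign, and none was called.

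On the lower side, Zfp758 read 217 ± 52.2 in KO mice and 427 ± 32.3 in WT mice (SD, n = 4 arrays each), a log2 difference of -1.01 ± 0.15 (SE) and an adjusted p of 0.057 in limma. Clcn7, a lysosomal chloride transporter 21 genes before Cacna1h, read 245 and 226 in KNR and 128 and 76.8 in KTR, against 330 and 494 in WNR and 420.0 and 385 in WTR. Its log2 difference was -1.31 ± 0.23 (SE), with an adjusted p of 0.078 in limma. Spsb3, an adaptor of a ubiquitin ligase, differed by -0.57 ± 0.10 (SE) and lies next to Eme2 in the order, 32 genes before Cacna1h. Ndufb10, an accessory subunit of respiratory complex I, read 1188 and 1089 in KNR and 561 and 506 in KTR, against 1695 and 1636 in WNR and 1957 and 2088 in WTR. Its difference was -0.55 in naive and -1.92 in trained mice. The interaction of genotype and training had an adjusted p of 0.032 for Ndufb10 in the limma fit with group means, a test that 5.18% of all probes passed. Fgd2, an activator of the small GTPase Cdc42, lay on the other side, 173 genes after Cacna1h, and differed by 1.07 ± 0.17 (SE; adjusted p 0.057 in limma).

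Genes elsewhere that came near the threshold varied in function. Ogn, a small proteoglycan of connective tissue also called osteoglycin, read 476 and 408 in KNR and 301 and 294 in KTR, against 702 and 716 in WNR and 664 and 785 in WTR. It differed by -0.98 ± 0.14 (SE; adjusted p 0.057 in limma). Col1a2, a collagen chain of the same kind of tissue, had the opposite sign, with a log2 difference of 0.72 ± 0.11 (SE). Over the list of 14 measured genes of meningeal fibroblasts, Col1a2 was the 1 gene above and Ogn the 1 gene below, and the summed intensity was 18980 to 21070 in KO arrays and 14975 to 20742 in WT arrays. The part of meningeal tissue in these differences was not tested.

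Calb1, the calcium buffer calbindin of dentate granule cells, read 706 and 531 in KNR and 433 and 469 in KTR, against 944 and 991 in WNR and 750 and 783 in WTR. The genotypes did not overlap, and Calb1 differed by -0.71 ± 0.11 (SE; adjusted p 0.057 in limma). Prox1, the transcription factor that defines granule cells, read 405 and 366 in KNR and 201 and 159 in KTR, against 571 and 564 in WNR and 353 and 383 in WTR, and differed by -0.80 ± 0.13 (SE; adjusted p 0.063 in limma). KO arrays were lower within each training state, with KNR overlapping WTR. Of 10 measured dentate gyrus genes, Calb1 and Dock10 lay below and 0 above, and the median was -0.02. Their summed intensity was 31230 to 32344 in KO arrays and 31771 to 32635 in WT arrays, and the part of dentate tissue in the differences of Calb1, Dock10 and Prox1 was not tested.

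Other genes with an adjusted p of 0.052 to 0.057 in limma included Aig1 (0.71), Cox6a2 (0.76), Helz (0.69), Igsf3 (0.58) and Acvrl1 (0.50), with KO arrays above WT arrays. Hdgfl3 (-0.77), Prr32 (-0.94) and Tirap (-0.55) had KO arrays below (log2 differences). Prr32 and Tirap had KO arrays under the floor. Between 0.05 and 0.06 lay 27 probes with a gene symbol, not all named here. Rapgef4, the cyclic AMP sensor Epac2, differed by -0.54 ± 0.08 and Cnn3, an actin-binding calponin, by -0.56 ± 0.08 (SE). In both, trained arrays were lower than naive arrays in each genotype, so the genotypes overlapped across training states.

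Gene lists were read against the 6.46% of all genes with separate genotypes, and against the 6 genes called by their brightest probe, which were Bricd5, Srrm2, Eme2, Glo1, Ago2 and Dynlt1. Voltage-gated calcium channel subunits, the family of the deleted gene, had 17 measured genes, a median log2 difference of -0.01, 1 gene above and 1 below. The gene below was Cacna1h itself, and the gene above was Cacna1a, the pore of P/Q-type channels at presynaptic terminals, at 305 ± 36.8 in KO mice and 228 ± 22.7 in WT mice (SD, n = 4 arrays each; log2 difference 0.42, adjusted p 0.11 in limma). The arrays of the other 15 genes overlapped.

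Among 27 genes of intracellular calcium stores and buffers, 5 or 18.5% were apart, with a median of -0.07. Cabp7 and Cabp1, neuronal calcium-binding relatives of calmodulin, lay above, with log2 differences of 0.90 ± 0.15 and 0.50 ± 0.15 (SE; adjusted p 0.066 and 0.19 in limma). Cabp7 read 347 and 306 in KNR and 349.5 and 345 in KTR, against 218 and 226 in WNR and 155 and 137 in WTR. Slc8a1, a sodium-calcium exchanger of the cell membrane, Letm1, an ion exchanger of the mitochondrial inner membrane, and Calb1 lay below, at -0.30, -0.18 and -0.71. None of the 5 passed the adjusted threshold, and 4 genes of the list were higher and 6 lower at an unadjusted p under 0.05, as were 8.32% and 7.6% of all genes. Ryr2, of the list of stores and buffers, differed by -0.51 ± 0.11 (SE), with overlapping arrays. Of 31 calcium-dependent signalling enzymes, 1 was apart: Camk2n1, an inhibitor of calcium/calmodulin kinase II, differed by 0.28 ± 0.08 (SE), with an adjusted p of 0.18 in limma.

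Of other ion channels and receptors, few genes were apart. Of 40 potassium channel genes 0 were apart, of 9 sodium and HCN channel genes 1 (Scn3b, 0.41), of 19 glutamate receptor genes 1 (Grin3a, -0.40), and of 10 genes of GABA receptors and their scaffold 1 (Gphn, 0.30). Being apart leaves training aside, so a gene that also changes with training can overlap. Kcnk2 (-0.56 ± 0.11), Kcnn2 (-0.62 ± 0.14) and Gria3 (-0.54 ± 0.10) overlapped, though KO arrays were lower within each training state (log2 difference ± SE). Their adjusted p was 0.085 to 0.12 in limma. At an unadjusted p under 0.05, 0 potassium channel genes were higher and 4 lower, and 2 and 2 glutamate receptor genes. Of all genes, 8.32% and 7.6% were. Presynaptic release genes had 0 of 31 apart and a median of -0.04, and postsynaptic scaffolds 1 of 23 and a median of 0.00. Of 25 immediate early genes, which neurons switch on within minutes of activity, Npas4 was the 1 gene apart. It read 459 and 425 in KNR and 292 and 290.4 in KTR, against 280.4 and 290.1 in WNR and 237 and 282 in WTR, with an adjusted p of 0.18 in limma.

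Of 33 tubulin and microtubule-associated genes, 4 or 12.1% lay above and 0 below. They were Mapre3 (0.71 ± 0.14), a plus-end binding protein, Map2 (0.70 ± 0.16) and Mapt (0.49 ± 0.12), which bind dendritic and axonal microtubules, and Tbcd (0.46 ± 0.11), a tubulin folding cofactor (log2 difference ± SE; adjusted p between 0.093 and 0.13 in limma). The median of the tubulin and microtubule list was 0.01, with 17 genes positive and 16 negative. Tuba1a, a tubulin, differed by -0.48 ± 0.13 (SE), with overlapping arrays. Dynein and kinesin motors, of which Dynll2 is a member by its other and brighter probe, had 0 of 29 apart. Dynlt1 is not among these 29 genes. MAP kinase cascade genes had 0 of 37 apart by their brightest probes and a median of -0.08. The called probes of Dynll2 and Mapk8 were not the brightest of their genes.

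Heat shock and chaperone genes had a median of -0.20, below the 0.006 of all genes, with 3 of 19 or 15.8% below and 0 above. Hsp90ab1, an abundant cytosolic chaperone, read 21507 ± 1310 in KO mice and 27341 ± 3310 in WT mice (SD, n = 4 arrays each), a log2 difference of -0.34 ± 0.09 (SE; adjusted p 0.15 in limma). Hspa9 and Trap1, chaperones of mitochondria, differed by -0.28 and -0.25. At an unadjusted p under 0.05, 7 of the 19 genes were lower and 1 higher, beside 7.6% lower and 8.32% higher of all genes, and no member passed the adjusted threshold. The median was -0.11 in naive and -0.23 in trained mice.

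Spliceosome genes had Srrm2 as their 1 called member, 2 of 52 above and 1 below, and a median of -0.01. In the small RNA pathway, Ago2 was the 1 called member of 15 and the 1 gene above. Drosha, which cuts primary microRNA transcripts, lay below, at 1500.0 ± 25.3 in KO mice and 1728 ± 144 in WT mice (SD, n = 4 arrays each; adjusted p 0.29 in limma). Nuclear envelope genes had 3 of 18 apart, Lmna (0.40), a lamin, and Nup98 (0.36), a nucleoporin, above, and Ranbp2, another nucleoporin, below at -0.83 ± 0.23 (log2 difference, SE). Glucocorticoid-responsive and metallothionein genes had 2 of 14 above, Plin4 (0.62) and Klf9 (0.28), and 5 higher and 0 lower at an unadjusted p under 0.05, where 8.32% and 7.6% of all genes were.

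Respiratory and ribosomal genes of mitochondria had medians of opposite sign in the 2 training states. Complex I genes had a median of 0.14 over both states, but of 0.41 in naive and -0.11 in trained mice. Complexes II to V gave 0.10, with 0.38 in naive and -0.10 in trained mice, and the mitochondrial ribosome 0.09, with 0.32 and -0.15. Few single members stood apart, 2 of 32, 1 of 28 and 1 of 63 in that order, and none was called. The change of sign was not particular to mitochondrial lists. In naive and trained mice, proteasome genes had medians of 0.25 and -0.17, meningeal fibroblast genes 0.37 and -0.12, and inhibitory neuron genes 0.34 and -0.04. Odorant receptor genes went the other way, with -0.32 and 0.12. The 10414 genes not placed on chromosome 17 had -0.0 and 0.01.

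**Figure D5:**
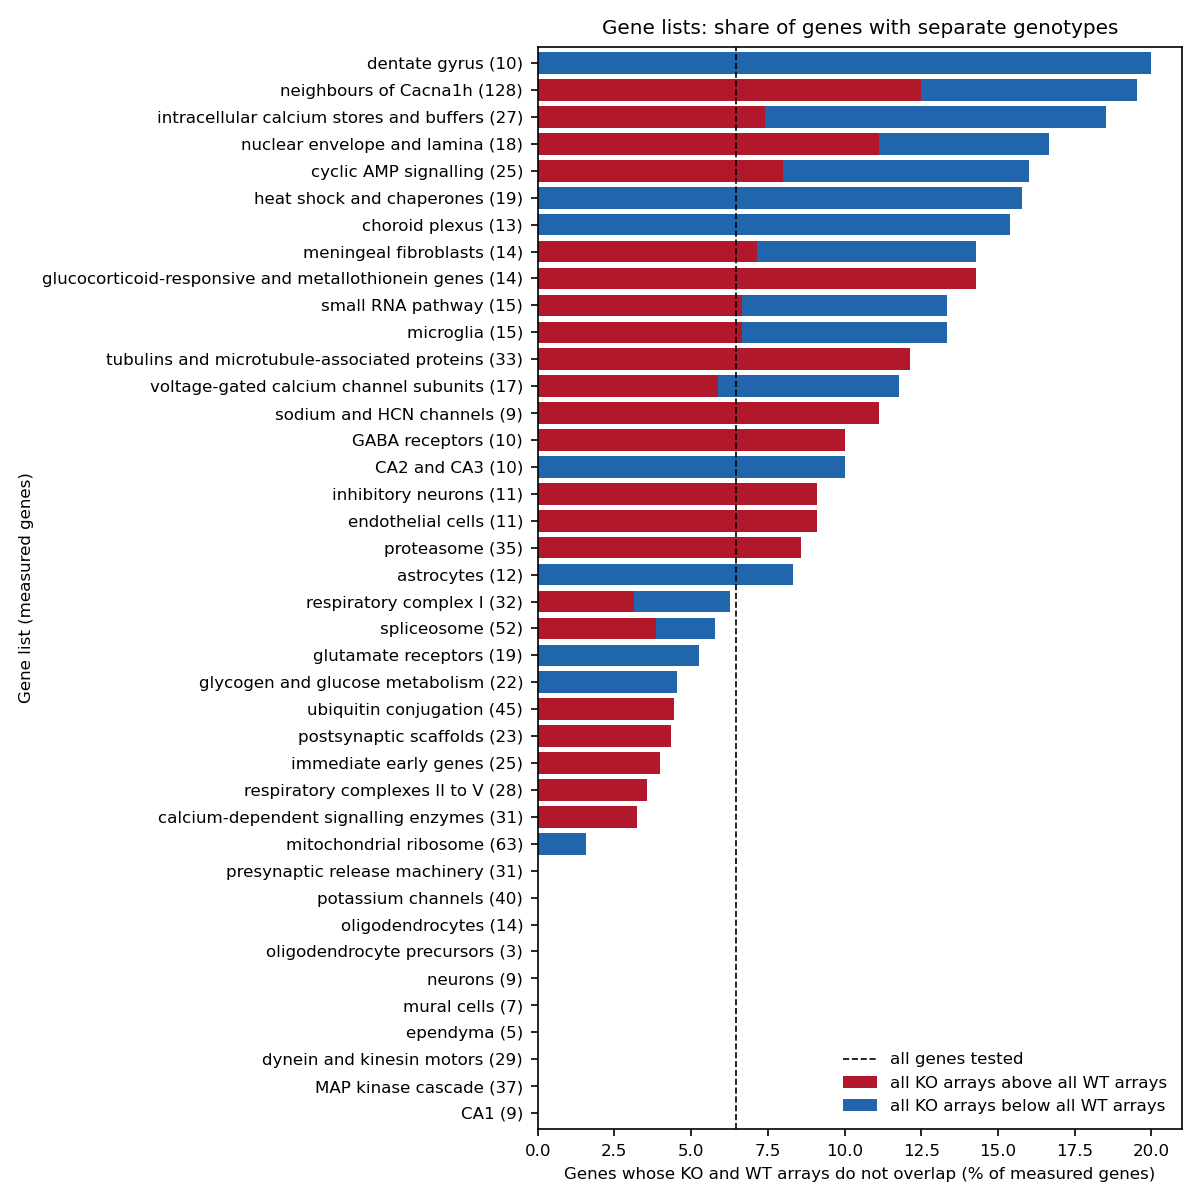
Percent of the measured genes of each list whose KO and WT arrays do not overlap, split into genes above (red) and below (blue), with the number of measured genes in brackets and a dashed line at the 6.46% of all genes tested. Neighbours of Cacna1h reach 19.5% of 128 genes and calcium stores and buffers 18.5% of 27, while 0 of 40 potassium channel genes are apart. The measure leaves training aside, so genes that also change with training can overlap.

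Markers of other cell types were read beside these lists. Genes of neurons had 0 of 9 apart, and the summed intensity was 158556 to 185412 in KO arrays and 171349 to 175639 in WT arrays, with the saturated Snap25 probe in the sum. Inhibitory neurons had 1 of 11 above, Npy (0.49 ± 0.14 SE), which differed by 0.80 in naive and 0.17 in trained mice. Gad2, of the same list, differed by -0.35 ± 0.09 (SE), with overlapping arrays. Of the 11 genes, 7 were positive and 4 negative, and their summed intensity was 51560 to 55828 in KO arrays and 44668 to 56275 in WT arrays. Of 13 choroid plexus genes, 12 had a negative difference, 2 lay below and 0 above, and the sum was 23279 to 27734 in KO arrays and 20185 to 38633 in WT arrays. The 2 genes were Enpp2 (-0.84 ± 0.21) and Igfbp2 (-0.32 ± 0.12, log2 difference ± SE), and Enpp2 differed by -0.34 in naive and -1.34 in trained mice. The range over WT arrays held all KO arrays, but most of the sum was Ttr, with means of 15963 in WNR and 29754 in WTR. The sum therefore says little about the other genes of the list. At an unadjusted p under 0.05, 4 of the 13 genes were lower and 0 higher, beside 7.6% and 8.32% of all genes. Kl, of the same list, differed by -0.39 ± 0.10 (SE), with overlapping arrays. The part of choroid plexus tissue in other differences was not tested. Oligodendrocyte genes had 0 of 14 apart, 13 with a negative difference (48.8% of all genes had one), and the sum was 88891 to 109979 in KO arrays and 107260 to 113264 in WT arrays.

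Of 144 odorant receptor genes, which are known from olfactory neurons, 0 were apart. Of 22 measured genes that the study listed for right hippocampus, 6 lay below and 0 above, with a median of -0.62. They were Panx3, Ndufb10, Clcn7, Ranbp2, Eme2 and Ogn, and the list was drawn from these arrays, so its direction is not independent evidence. The list holds genes the study picked for genotype in trained mice, for genotype in naive mice, and for training in WT mice. Its median of 0.04 in naive and -0.93 in trained mice is therefore shaped by that choice.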

How the data were processed

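Labelled RNA from right hippocampi was hybridized to one-colour mouse OneArray slides, 2 arrays for each of 4 groups. The deposited values are array intensity values on a linear scale that the authors had quantile normalized; background correction and the genome build of the probes are not given in the sources used here. Of 29922 probes, 13539 were empty and 16383 had values. Symbols came from the platform annotation, with 2101 updated and 26 absent from the RefSeq table of GRCm38.p6, which served for names and gene order. Values under 100 were set to 100, log2 transformed, and fitted with limma 3.58.1 in R 4.3.3, with genotype and training as terms, over 16204 probes above 100 on at least 2 arrays. Means and SD are of values before the floor. Folds are of geometric means after it, and are lower bounds where a group lies at it. For lists, 1 probe per gene (highest mean) was used. The fit was tested on simulated data with independent arrays, which cannot show its error rate where arrays of a group share a pool. The number of arrays limits the precision.

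Genes were named if called, with 1 symbol, no overlap of genotypes and the higher genotype above 200 on its 4 arrays, taking the 15 largest in each direction, and also Cacna1h, genes listed by the study that passed, and up to 4 passing members of a list. Other genes, including those that missed the threshold, were chosen after their values were seen. The comparison, its members and the gene lists were chosen with earlier results of these data known. Other floors, filters, normalizations, models and left-out arrays were tried.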

Additional observations from a re-analysis of the deposited data

Results flagged for a closer look

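Among 69 probes of genes named here, or called, the KO and WT arrays were searched for an array far from the other 3, in 138 groups of 4. In 6 groups 1 array stood apart, its gap to the nearest of the others taking most of the whole range, and chance alone flags about 1 in 20 groups. Gap over range was 0.889 in KO arrays for a called probe without a symbol, 0.902 for Cabp7 in KO arrays, 0.895 for Drosha in KO arrays, 0.915 for Camk2n1 in WT arrays, 0.922 for Gphn in WT arrays and 0.844 for Klf9 in WT arrays. For Cabp7 the lone KO array was the second KNR array, at 306 against 345 to 349.5 on the others.

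Among these genes, 5 had a KO minus WT difference that itself differed between training states, by the interaction term of the limma fit with group means at an adjusted p under 0.05, as did 839 or 5.18% of all 16204 probes. The log2 difference in trained mice minus that in naive mice was -1.37 for Ndufb10, -0.72 for Cabp1, 0.80 for Map2, 1.72 for Panx3 and -1.23 for Ranbp2. The averaged difference of these 5 genes joins states with unequal values, as in Ranbp2, with -0.22 in naive and -1.45 in trained mice.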

How the results depend on the processing

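All 18 called probes kept their direction under every alternative run, apart from Map1b, whose difference became 0.00 with a floor of 200 and which the stricter filter left out. For 17 of the 18, KO and WT arrays did not overlap. Leaving out, averaging or splitting arrays could therefore not reverse their sign, and the kept direction is no further evidence. The number called was most open to the floor, the model and the arrays used. Against 18 probes, limma called 109 with a floor of 200, 38 with probes above 200 on 4 arrays, 578 with a mean per group (interaction in the model) and 9 without training as a term. With the 2 arrays of a group as a random block it called 6, with arrays of 1 group averaged 0 (411 at an unadjusted p under 0.05), with naive arrays only 0 (4323), with TFC arrays only 1, and with an adjusted p under 0.01 and over 2-fold 6. Cyclic loess gave 24, of which 54.2% were higher, against 72.2% in the reported fit; the cause was not tested. Other floors, no filter, the order of floor and normalization, and a trended robust prior gave 16 to 23.

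Leaving out 1 array gave 6 to 11 calls, and leaving out the first KNR and the second KTR array gave 5. Bricd5, Srrm2, Lemd2, Eme2 and mMC002908 remained called with each array left out in turn, Dynll2 with each but the first KTR or the first WTR array. Mapk8, Glo1, Ago2 and Map1b lost the call whichever of the 8 arrays was left out, and Dynlt1 with 7 of them. Cacna1h lay between -0.86 and -0.67 with 1 array left out, and among its alternatives passed only with group means (-0.78, adjusted p 0.031, others up to 1.0).

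Equal replicate numbers did not pair the samples: deviations of same-numbered arrays correlated at 0.44 between KNR and KTR and 0.274 between WNR and WTR, but between -0.385 and -0.244 in all 4 pairs of a KO and a WT group, and the source of this shared pattern was not tested. With the replicate number as a block, 7 probes were called. Lists kept their medians within the spread in 966 of 1151 values.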
